A study of Mus musculus with 9 samples.

Results

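Dendritic cell genes were read in the transcriptomes of 9 mouse lymphomas, of which 3 came from the Bcl6 genotype and 6 from the Smc3/Bcl6 genotype. The genes were the 9 rows of the count table, out of 41128, whose symbol was Flt3, Xcr1, Clec9a, Batf3, Cd209a, Zbtb46, Itgax, Siglech or Ccr7. Bcl6 tumors were IµBcl6 Smc3 wt/wt; Cγ1 wt/cre and Smc3/Bcl6 tumors were IµBcl6 Smc3 wt/-; Cγ1 wt/cre, so both genotypes carried the IµBcl6 transgene, which drives Bcl6 in B cells from the immunoglobulin heavy chain locus, and the Cγ1-cre allele, whose Cre is switched on as B cells begin a germinal center reaction. The Cre-directed loss of 1 Smc3 copy is therefore aimed at B cells and not at dendritic cells. Replicate 1 of each genotype was labelled as mesenteric lymph node and the other 7 tumors as lymph node, and the ages of the mice were not given in the sources used here. The study describes the lymphomas as mesenteric without such a split, so whether the tissue differed rests on the labels alone. The comparison asks whether lymphomas with 1 Smc3 copy differ in these genes from lymphomas with both copies.

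Dendritic cells take up antigen and present it to T cells in the lymph node. Conventional type 1 cells (cDC1) specialize in cross-presentation to CD8 T cells, conventional type 2 cells (cDC2) in presentation to CD4 T cells, and plasmacytoid cells in the release of type I interferon, and conventional cells that have matured in tissue migrate to the node by the chemokine receptor Ccr7. All of them depend on the growth factor receptor Flt3 during development. In a lymphoma they are cells of the surrounding tissue. The paper describes the sequenced RNA as that of lymphoma cells and names no sorting step for it. In RNA of many cells read together, fewer cells of a type and less RNA per cell cannot be told apart.

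Libraries held 10156728 to 17774577 counts. Smc3 itself stood at 88.1 to 126 CPM (counts per 1e6 of the library size after TMM scaling) in Bcl6 tumors and at 27.9 to 111 in Smc3/Bcl6 tumors (log2 fold change -0.19 ± 0.39 SE, unadjusted p = 0.628). These counts thus did not tell the genotypes apart, and the groups follow the labels. The paper reports reduced Smc3 expression in Smc3/Bcl6 tumors, with RT-qPCR shown for tumors of both genotypes. The low value of 27.9 was that of Smc3/Bcl6 tumor 2, and the next lowest was 89.7. This library stood apart from the others: its deviation from the mean of all tumors fell with exon length (Spearman rho across genes -0.466, against -0.03 to 0.27 in the other 8), and long genes such as Zbtb46 and Flt3 are read in it with that limit.

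The start regions of 5 of the genes are shown because these genes formed the sets described further on that were high in different tumors, the first 4 in one set and Siglech in the other. Each run is the 250 bases before the RefSeq start on GRCm38.p6, written 5′ to 3′ on the strand of the gene, with motif matches in capitals. Xcr1 lies at chr9:123862030-123862279 on the minus strand, Clec9a at chr6:129408612-129408861 on the plus strand and Batf3 at chr1:191098164-191098413 on the plus strand. Itgax lies at chr7:128129300-128129549 and Siglech at chr7:55767934-55768183, both on the plus strand.
Xcr1: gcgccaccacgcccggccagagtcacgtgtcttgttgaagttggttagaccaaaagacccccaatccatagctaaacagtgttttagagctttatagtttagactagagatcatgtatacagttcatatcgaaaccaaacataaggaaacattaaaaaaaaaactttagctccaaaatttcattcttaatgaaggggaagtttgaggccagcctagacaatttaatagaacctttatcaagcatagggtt
Clec9a: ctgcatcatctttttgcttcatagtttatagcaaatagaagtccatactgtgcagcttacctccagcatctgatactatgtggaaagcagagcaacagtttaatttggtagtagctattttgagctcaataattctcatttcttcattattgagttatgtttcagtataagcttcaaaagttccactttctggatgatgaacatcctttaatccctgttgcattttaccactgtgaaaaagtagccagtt
Batf3: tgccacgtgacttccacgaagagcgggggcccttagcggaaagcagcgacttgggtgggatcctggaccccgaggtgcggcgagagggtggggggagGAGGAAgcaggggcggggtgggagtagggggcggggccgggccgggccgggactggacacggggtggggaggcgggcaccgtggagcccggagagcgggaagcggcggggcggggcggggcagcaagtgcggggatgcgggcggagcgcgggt
Itgax: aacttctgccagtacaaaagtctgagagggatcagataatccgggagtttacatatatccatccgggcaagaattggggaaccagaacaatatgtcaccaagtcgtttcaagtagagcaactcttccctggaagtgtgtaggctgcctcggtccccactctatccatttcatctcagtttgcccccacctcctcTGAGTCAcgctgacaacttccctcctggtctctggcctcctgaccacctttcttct
Siglech: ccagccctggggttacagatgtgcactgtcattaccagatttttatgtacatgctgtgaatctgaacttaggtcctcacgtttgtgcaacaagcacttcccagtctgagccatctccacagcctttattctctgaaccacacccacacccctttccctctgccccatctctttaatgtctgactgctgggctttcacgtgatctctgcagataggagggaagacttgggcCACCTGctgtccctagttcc

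The windows were searched on both strands for 4 motifs of factors known in these cells: GAGGAA (core of a PU.1 site), the ETS-IRF composite element, TGANTCA (AP-1 site, also bound by BATF factors) and CAGGTG (E-box of E proteins). RefSeq windows were found for 8 of the 9 genes, all but Ccr7. GAGGAA occurred in the Batf3 window, 153 bases before the start, and in 23.3% of all 32851 mouse windows of that length. TGANTCA occurred in the Itgax window, 56 bases before the start, and in the Zbtb46 window, against 6.75% of all windows. CAGGTG occurred in the Siglech window, 20 bases before the start and read there as its reverse complement, and in the Zbtb46 window, against 17.2% of all windows. The RefSeq start used lay downstream of the start of the annotated gene, by 35038 bases for Zbtb46 and 567 bases for Batf3. Both windows thus lay inside the annotated gene and not before it. The composite element occurred in 0 of the 8 windows and in 2.3% of all windows. No motif occurred in all windows of the first set. The cDC1 genes had unlike start regions, since the Batf3 window held 76.0% G and C and 27 CpG, the Xcr1 window 38.8% and 5 CpG, and the Clec9a window 35.6% and 0 CpG, against medians of 52.4% and 6 CpG over all windows. These matches describe letters only and show neither binding nor its absence.

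No member passed the test between genotypes. All 9 passed the filter on low counts, and 0 of 9 were past the thresholds of the study (unadjusted p below 0.1 and absolute log2 fold change above 0.56), against 2.15% of the 14057 genes tested. The groups overlapped in 9 of 9, against 0.484% of the tested genes whose groups did not overlap. The log2 fold change was negative in 5 and positive in 4, with a median of -0.15 beside 0.06 over all tested genes. Adjusted p was 1 for each of the 9 genes (edgeR quasi-likelihood test, Benjamini-Hochberg), and no tested gene reached an adjusted p below 0.05 by edgeR, DESeq2 or limma, while 79 genes (0.562%) had an unadjusted p below 0.05 by edgeR. At an unadjusted p below 0.05, 0 of the 9 passed by edgeR, 0 by DESeq2 and 2 by limma with quality weights. The share of all tested genes at that cut was taken for edgeR only, so the 2 by limma stand without a background there. At the thresholds of the study, 0 of 9 passed by DESeq2 against 3.15% of all tested genes, and 2 of 9 by limma against 11.7%. The standard errors of the log2 fold changes were 0.26 for Ccr7 and 0.64 to 1.14 for the others, which sets the size of a difference that could have been seen here. What the data show of these genes is therefore mainly their variation from tumor to tumor.

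**Figure D1:**
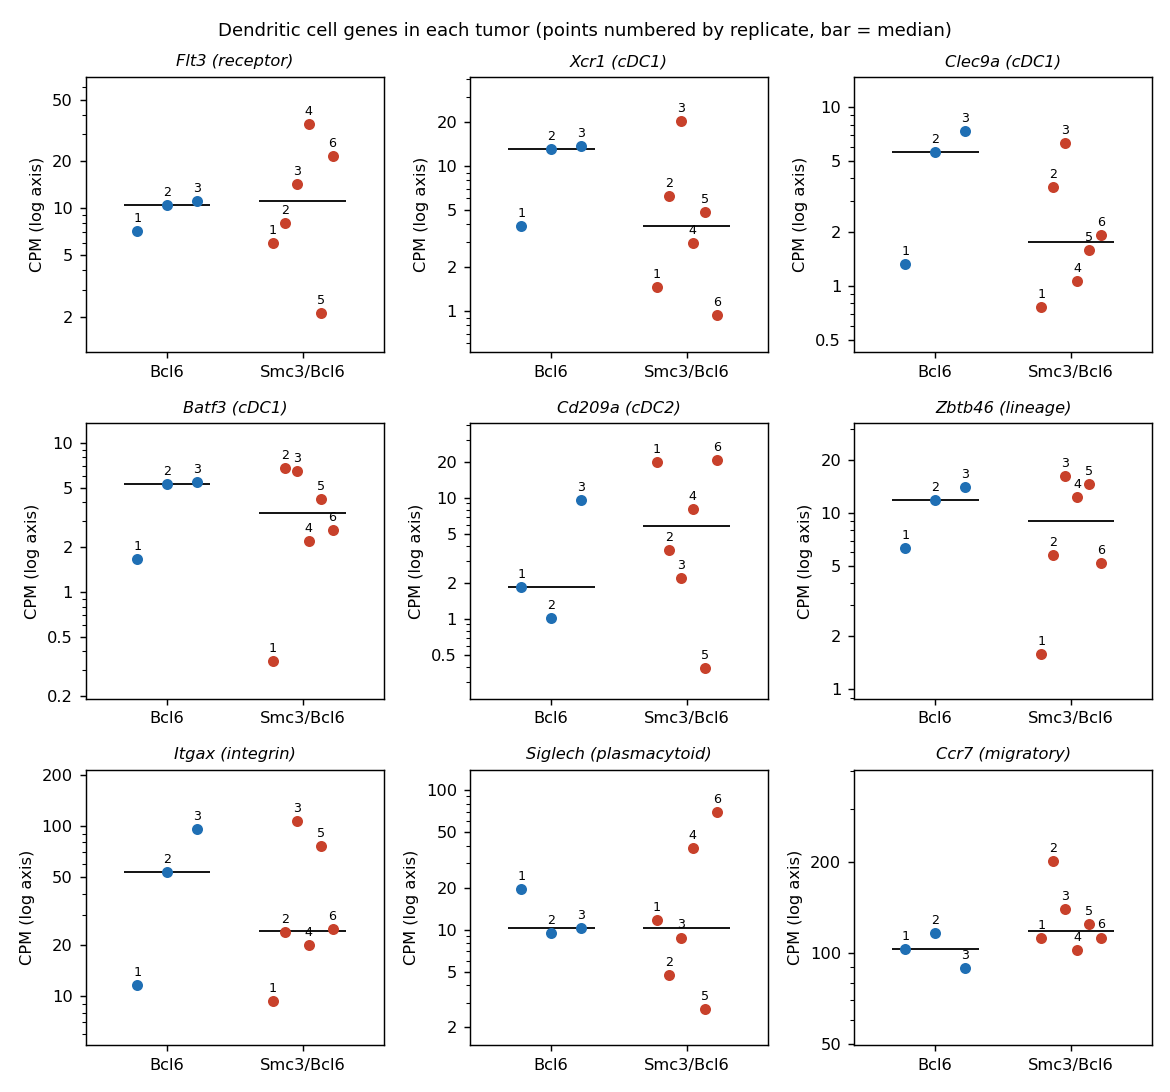
CPM of the 9 dendritic cell genes (log axis) in 3 Bcl6 tumors (blue) and 6 Smc3/Bcl6 tumors (red), each point a tumor with its replicate number and each bar the median of a group. The genotypes overlap in every panel, and all genes but Ccr7 spread over 9.66-fold or more.

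Flt3, the receptor for the ligand that drives dendritic cell development from bone marrow progenitors, lies on chromosome 5 (147330741 to 147400489, GRCm38, minus strand, ENSMUSG00000042817.12). It stood at 7.14, 10.4 and 11.2 CPM in Bcl6 tumors 1, 2 and 3. In Smc3/Bcl6 tumors it ran from 2.13 in tumor 5 over a median of 11.2 to 34.8 in tumor 4. All 3 Bcl6 tumors thus lay inside the range of the Smc3/Bcl6 tumors. The log2 fold change of Smc3/Bcl6 over Bcl6 was 0.60 ± 0.73 SE (unadjusted p = 0.432), and it was 0.10 without Smc3/Bcl6 tumor 4. With a block for the replicate number, fitted over tumors 1 to 3 of each genotype and so without Smc3/Bcl6 tumors 4 to 6, the direction turned, to -0.12 ± 0.46 SE (unadjusted p = 0.796). The same tumors without the block gave -0.06 ± 0.50 SE, so the turn came with leaving out tumors 4 to 6.

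Of the cDC1 genes, Xcr1 encodes the receptor for the chemokine Xcl1, by which cDC1 meet CD8 T cells and NK cells. It lies on chromosome 9 (123852315 to 123862029, minus strand, ENSMUSG00000060509.4) and stood at 3.88, 13.1 and 13.7 CPM in Bcl6 tumors 1, 2 and 3. In Smc3/Bcl6 tumors it ran from 0.933 in tumor 6, a count of 14, over a median of 3.87 to 20.5 in tumor 3. The highest and the lowest value thus both belonged to Smc3/Bcl6 tumors, while 5 of these 6 lay below Bcl6 tumors 2 and 3. The log2 fold change was -0.73 ± 0.87 SE (unadjusted p = 0.423, exact two-sided permutation p = 0.286). A single tumor decided whether Xcr1 passed: once Smc3/Bcl6 tumor 3 was left out, its log2 fold change came to -1.71 ± 0.69 SE (unadjusted p = 0.0357), past the thresholds with 4.51% of all genes tested in that fit.

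Clec9a, the cDC1 receptor for actin exposed by dead cells, lies on chromosome 6 (129408862 to 129424763, plus strand, ENSMUSG00000046080.12) and was the member with the fewest counts, 428 over the 9 tumors. It stood at 1.32, 5.62 and 7.37 CPM in Bcl6 tumors 1, 2 and 3, and in Smc3/Bcl6 tumors from 0.763 in tumor 1 over a median of 1.76 to 6.32 in tumor 3. Bcl6 tumor 1 lay among the low Smc3/Bcl6 tumors, and Smc3/Bcl6 tumor 3 lay between Bcl6 tumors 2 and 3. The log2 fold change was -0.90 ± 0.74 SE (unadjusted p = 0.248). It was -1.50 without Smc3/Bcl6 tumor 3 (unadjusted p = 0.0579) and -1.41 without Bcl6 tumor 1 (unadjusted p = 0.0955, where 2.5% of all tested genes passed), both past the thresholds. Limma with a quality weight for each tumor gave -1.35 ± 0.57 SE for Clec9a (unadjusted p = 0.0389) and -2.08 ± 0.73 SE for Xcr1 (unadjusted p = 0.0178). In that fit 7.13% of all tested genes were lower past the same thresholds, and Smc3/Bcl6 tumor 2 had the lowest weight of the 9, 0.126.

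Batf3, the AP-1 family factor that cDC1 need to develop, lies on chromosome 1 (191097847 to 191108945, plus strand, ENSMUSG00000026630.4). It stood at 1.68, 5.35 and 5.48 CPM in Bcl6 tumors 1, 2 and 3, and in Smc3/Bcl6 tumors from 0.347 in tumor 1, a count of 5, over a median of 3.39 to 6.77 in tumor 2. Replicate 1 was the lowest tumor in each genotype, and the others lay within 2.20 to 6.77 CPM. Between genotypes the log2 fold change was -0.15 ± 0.77 SE (unadjusted p = 0.852) and its direction had no hold: it was 0.09 without Smc3/Bcl6 tumor 1, 0.09 without Bcl6 tumor 3 and 0.00 without Bcl6 tumor 2.

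The cDC2 gene Cd209a, a C-type lectin that also marks some monocyte-derived cells, lies on chromosome 8 (3743397 to 3748984, minus strand, ENSMUSG00000031494.6). It stood at 1.85, 1.03 and 9.64 CPM in Bcl6 tumors 1, 2 and 3. In Smc3/Bcl6 tumors it ran from 0.395 in tumor 5, a count of 5, over a median of 5.88 to 20.7 in tumor 6, with tumor 1 close to the top at 19.8. It varied the most of the 9 genes, 52.3-fold between the highest and the lowest tumor, and both ends lay in the Smc3/Bcl6 group. For Cd209a the log2 fold change was 1.14 ± 1.14 SE (unadjusted p = 0.343). Without Bcl6 tumor 3 it was 2.67 ± 1.39 SE (unadjusted p = 0.0876), past the thresholds with 2.41% of the genes tested there.

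Zbtb46, a zinc finger factor of conventional dendritic cells and their committed precursors, lies on chromosome 2 (181387762 to 181459426, minus strand, ENSMUSG00000027583.8). It stood at 6.35, 11.99 and 14.1 CPM in Bcl6 tumors 1, 2 and 3, and in Smc3/Bcl6 tumors from 1.596 in tumor 1 over a median of 9.10 to 16.2 in tumor 3. Replicate 1 was again the lowest of each genotype. Over all tumors its log2 fold change was -0.21 ± 0.64 SE (unadjusted p = 0.748), and it was 0.02 without Bcl6 tumor 3 and 0.01 without Smc3/Bcl6 tumor 1. It was larger, though still short of the thresholds, at -0.96 ± 0.58 SE with the replicate block (unadjusted p = 0.147), -0.73 ± 0.53 SE by limma (unadjusted p = 0.201) and -0.69 ± 0.54 SE with the tissue label as a covariate (unadjusted p = 0.229).

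Itgax encodes CD11c, the integrin subunit used to identify dendritic cells, which macrophages and activated B cells can carry too. It lies on chromosome 7 (128129547 to 128150657, plus strand, ENSMUSG00000030789.8). It stood at 11.6, 53.7 and 95.7 CPM in Bcl6 tumors 1, 2 and 3, and in Smc3/Bcl6 tumors from 9.30 in tumor 1 over a median of 24.3 to 107 in tumor 3. The 3 Bcl6 tumors alone spanned most of the range of all 9. Its log2 fold change was -0.30 ± 0.80 SE (unadjusted p = 0.714), and it was 0.41 without Bcl6 tumor 3.

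Siglech, a sialic acid binding receptor of mouse plasmacytoid cells, lies on the same chromosome (55768178 to 55778925, plus strand, ENSMUSG00000051504.13). It stood at 19.7, 9.40 and 10.3 CPM in Bcl6 tumors 1, 2 and 3, and in Smc3/Bcl6 tumors from 2.69 in tumor 5 over a median of 10.3 to 70.0 in tumor 6. Smc3/Bcl6 tumors 4 and 6 lay above all others, at 38.4 and 70.0, and the other 4 lay at or below 11.7. Its difference between genotypes was a log2 fold change of 0.79 ± 0.95 SE (unadjusted p = 0.422), and it was 0.02 without Smc3/Bcl6 tumor 6. Over tumors 1 to 3 of each genotype, which leaves out both high tumors, the direction turned, to -0.64 ± 0.50 SE without the replicate block and -0.68 ± 0.45 SE with it (unadjusted p = 0.178).

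Ccr7, the receptor that guides mature dendritic cells and also naive and central memory T cells and B cells to the T cell zone, lies on chromosome 11 (99144196 to 99155077, minus strand, ENSMUSG00000037944.8). It stood at 104, 117 and 89.7 CPM in Bcl6 tumors 1, 2 and 3, and in Smc3/Bcl6 tumors from 103 in tumor 4 over a median of 119 to 202 in tumor 2. This narrow band, 2.26-fold from end to end, set it apart from the other members, and its highest value was that of the library that stood apart. Its log2 fold change was 0.36 ± 0.26 SE (unadjusted p = 0.205), and 0.21 ± 0.15 SE without Smc3/Bcl6 tumor 2. Leaving out that tumor left every member short of the thresholds, which 3.82% of the genes tested then passed, and turned no direction.

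**Figure D2:**
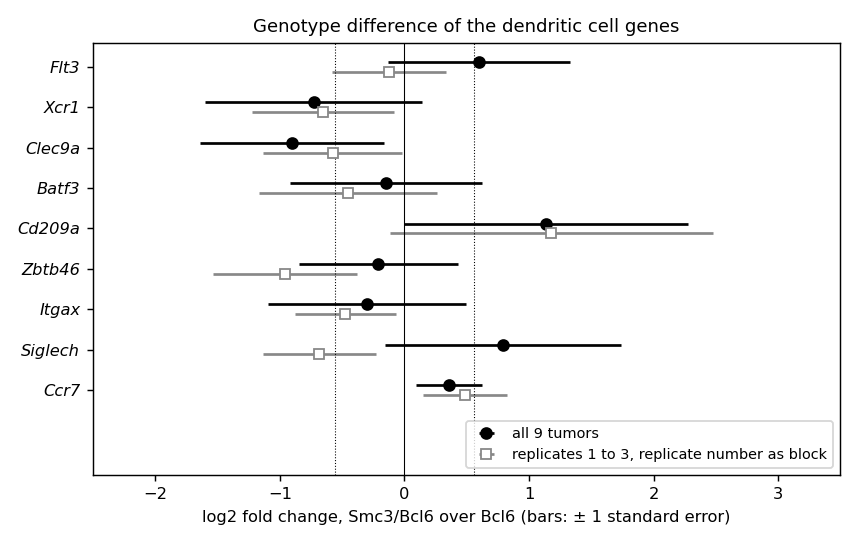
Log2 fold change of Smc3/Bcl6 over Bcl6 for each gene, with bars of 1 standard error, from all 9 tumors (filled circles) and from the fit blocked by replicate number over tumors 1 to 3 of each genotype (open squares). Dotted lines mark 0.56 in either direction. Flt3 and Siglech lie right of 0 in the first fit and left of it in the second.

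The spread between tumors was wide for all members but Ccr7. The SD of log2 CPM over the 9 tumors had a median of 1.23 among the members, against 0.635 over all tested genes. The SD of Cd209a exceeded that of 94.9% of tested genes, that of Xcr1 89.0% and that of Siglech 88.6%, and the lowest of the other members, Zbtb46, still exceeded 77.9%. Ccr7 exceeded 16.0%. Low counts add counting error to this spread for Clec9a, Batf3 and Cd209a, whose lowest counts were 11, 5 and 5.

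Per kilobase of exon, Ccr7 had the highest level of the 9 genes in every tumor, with a median of 57.0 CPM per kilobase (45.3 to 102). Itgax followed at a median of 5.16 (1.94 to 22.3), and the log2 ratio of Ccr7 to Itgax was 3.11 ± 1.34 (SD), above 0 in 9 of 9 tumors. Below it the order of medians was Siglech at 3.05, Batf3 at 2.62, Cd209a at 2.34, Flt3 at 1.69, Zbtb46 at 1.41, Xcr1 at 1.08 and Clec9a at 0.587 CPM per kilobase. Each of these genes, Itgax included, lay within 1 SD of the log2 ratio to its next neighbour, so only the step from Ccr7 to Itgax was larger than its spread. Flt3 was above Zbtb46 in 8 tumors and Xcr1 above Clec9a in 8 tumors.

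The member with the highest level per kilobase after Ccr7 changed from tumor to tumor. It was Itgax in Bcl6 tumors 2 and 3 and in Smc3/Bcl6 tumors 2, 3 and 5. It was the plasmacytoid gene Siglech in Bcl6 tumor 1 and Smc3/Bcl6 tumors 4 and 6, and the cDC2 gene Cd209a in Smc3/Bcl6 tumor 1. Each of these 3 genes thus led in a Smc3/Bcl6 tumor, and no leading gene was held by 1 genotype other than Cd209a, which led in a single tumor.

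Ratios within a library do not depend on its scaling. The ratio of the cDC1 gene Xcr1 to the cDC2 gene Cd209a per exon length was 0.745 (95% exact interval 0.434 to 1.32), 4.53 (2.84 to 7.65) and 0.505 (0.39 to 0.658) in Bcl6 tumors 1, 2 and 3. In Smc3/Bcl6 tumors it ran from 0.0161 (0.00867 to 0.0273) in tumor 6 and 0.0262 (0.016 to 0.0408) in tumor 1 to 3.33 (2.42 to 4.69) in tumor 3 and 4.34 (1.76 to 13.8) in tumor 5. Xcr1 exceeded Cd209a in 1 Bcl6 tumor and 2 Smc3/Bcl6 tumors with intervals above 1. Other cDC2 list genes did not all follow Cd209a. Clec10a, Tnfrsf11a and Csf1r were at their lowest in Smc3/Bcl6 tumor 1, at 0.208, 0.347 and 10.7 CPM. Epcam was at its highest there, at 31.5 CPM, and Clec10a was at its highest in Smc3/Bcl6 tumor 6, at 5.13. This ratio thus compares single genes and does not measure the cell types. The ratio of the plasmacytoid gene Siglech to Zbtb46, a gene of conventional cells, was 7.79, 1.97 and 1.84 in the Bcl6 tumors. In Smc3/Bcl6 tumors it ran from 0.457 (0.308 to 0.662) in tumor 5 to 18.5 (11.9 to 29.9) in tumor 1 and 33.9 (26.9 to 43.2) in tumor 6. Here too the genes of the list were split. Smc3/Bcl6 tumor 4, high in Siglech, had the lowest Ccr9, Klk1, Pacsin1 and Bst2, at 11.9, 3.06, 10.3 and 37.0 CPM. Smim5, Dntt and Cd300c were highest in Smc3/Bcl6 tumor 6, at 9.73, 6.33 and 7.53 CPM, as was Siglech. The intervals cover counting error only, since reads were not counted by molecule, and those of the highest and the lowest tumor of a genotype did not overlap for either ratio.

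**Figure D3:**
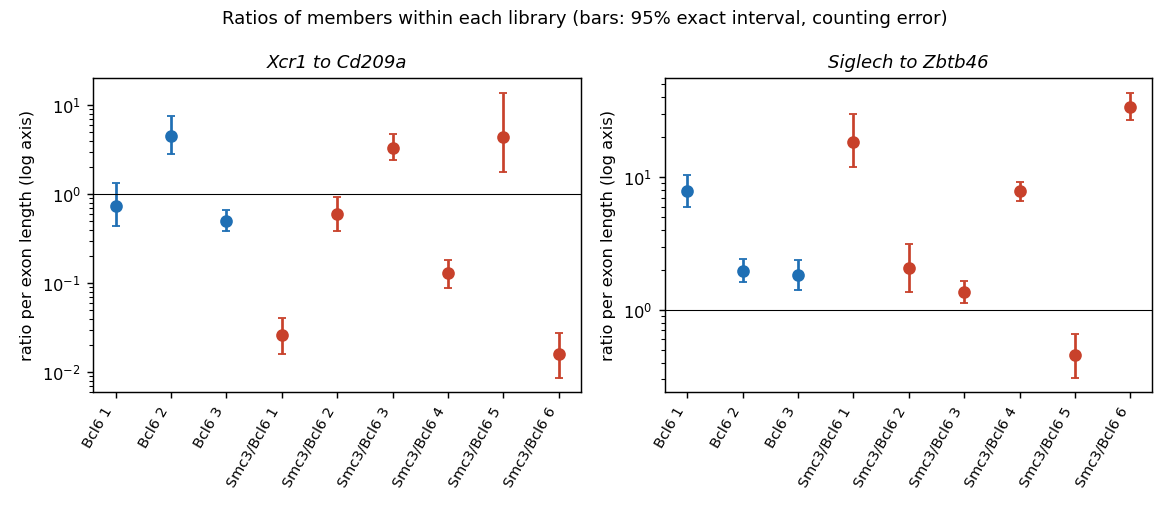
Ratio of Xcr1 to Cd209a (left) and of Siglech to Zbtb46 (right) per exon length in each library (log axis), Bcl6 tumors in blue and Smc3/Bcl6 tumors in red, with bars for the 95% exact interval of the counts. Tumors of 1 genotype lie on both sides of the line at 1 in the left panel, from 0.0161 to 4.34 among Smc3/Bcl6 tumors.

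Across the 9 tumors the members fell into 2 sets by their correlations of log2 CPM. The sets were drawn after the values were seen and are a description. The first held Xcr1, Clec9a, Batf3, Zbtb46 and Itgax, with Pearson r of 0.591 to 0.838 over its 10 pairs. The second held Flt3, Siglech and Cd209a, with r of 0.557 to 0.788 over its 3 pairs. Between the sets r was -0.581 to 0.123 over 15 pairs, and Ccr7 had r of -0.479 to 0.389 with the other 8. Of the 36 pairs, 0 had an adjusted p below 0.05.

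Of the 3 pairs of cDC1 genes, 2 had the highest r of all pairs. Xcr1 and Clec9a had r = 0.838 (n = 9, exact permutation p = 0.00656, adjusted p = 0.0591) and rho = 0.817 (exact p = 0.0108, adjusted p = 0.124). Without Smc3/Bcl6 tumors 3 and 6, the ones farthest from the median of Xcr1, r was 0.964. Clec9a and Batf3 had r = 0.825 (n = 9, exact permutation p = 0.00231, adjusted p = 0.0591) and rho = 0.85 (exact p = 0.00607, adjusted p = 0.109), and r was 0.819 without Bcl6 tumor 3 and Smc3/Bcl6 tumor 3. The third pair, Xcr1 and Batf3, had r = 0.731 (n = 9, exact permutation p = 0.0195, adjusted p = 0.0874) and rho = 0.783 (exact p = 0.0172, adjusted p = 0.124), below pairs with Itgax or Zbtb46, and r was 0.863 without Smc3/Bcl6 tumors 3 and 6. Within the 6 Smc3/Bcl6 tumors these r were 0.782, 0.832 and 0.698, and within the 7 tumors labelled lymph node 0.806, 0.824 and 0.817, while the 3 Bcl6 tumors and the 2 labelled mesenteric were too few for a value.

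Zbtb46 and Itgax had r = 0.818 (n = 9, exact permutation p = 0.00488, adjusted p = 0.0591) and rho = 0.783 (exact p = 0.0172, adjusted p = 0.124), and r was 0.813 without Smc3/Bcl6 tumors 1 and 6. Batf3 and Zbtb46 had r = 0.797 (n = 9, exact permutation p = 0.0198, adjusted p = 0.0874) but rho of only 0.467 (exact p = 0.213, adjusted p = 0.383). That relation rested on replicate 1 of each genotype, since r was 0.2 without these 2 tumors, which are also the 2 labelled mesenteric. Without Smc3/Bcl6 tumor 2, r was 0.839 for Xcr1 and Clec9a, 0.829 for Clec9a and Batf3, 0.814 for Zbtb46 and Itgax and 0.923 for Batf3 and Zbtb46. Over the 7 tumors labelled lymph node the first set kept r above 0 in 10 of 10 pairs, with a lowest value of 0.2.

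In the second set, Flt3 and Siglech had r = 0.788 (n = 9, exact permutation p = 0.0132, adjusted p = 0.0874) and rho = 0.533 (exact p = 0.148, adjusted p = 0.354), with r of 0.563 without Smc3/Bcl6 tumors 4 and 5. Cd209a and Siglech had r = 0.661 (n = 9, exact permutation p = 0.0524, adjusted p = 0.172) and rho = 0.65 (exact p = 0.0666, adjusted p = 0.2), but r of 0.205 without Smc3/Bcl6 tumors 5 and 6. This relation rested on those tumors, which held the lowest and the highest value of both genes. Flt3 and Cd209a had r = 0.557 (n = 9, exact permutation p = 0.117, adjusted p = 0.281) and rho = 0.45 (exact p = 0.23, adjusted p = 0.394), but r of 0.165 without Smc3/Bcl6 tumors 4 and 5. Without these tumors Flt3 had r of 0.552 with Itgax, 0.475 with Batf3, 0.473 with Zbtb46 and 0.425 with Clec9a, so its place in the second set rested on them. Over the tumors labelled lymph node the 3 pairs had r of 0.769 to 0.869. The cDC1 and cDC2 genes Xcr1 and Cd209a had r = -0.552 (n = 9, exact permutation p = 0.125, adjusted p = 0.281) and rho = -0.483 (exact p = 0.194, adjusted p = 0.367), with r of -0.38 without Smc3/Bcl6 tumors 3 and 6 and of -0.483 over the tumors labelled lymph node.

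**Figure D4:**
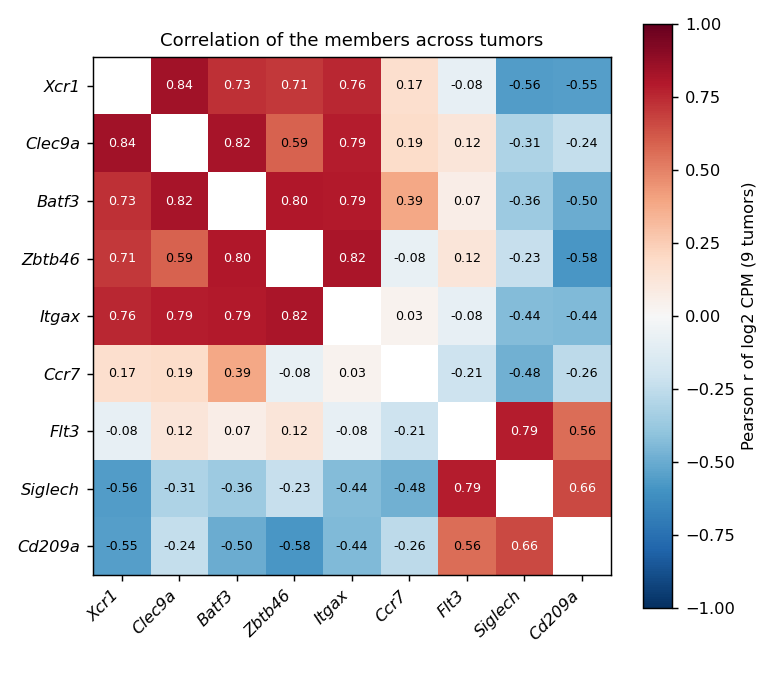
Pearson r of log2 CPM between the members across the 9 tumors, red for positive and blue for negative. The block of Xcr1, Clec9a, Batf3, Zbtb46 and Itgax at the upper left holds r of 0.591 to 0.838, and Flt3, Siglech and Cd209a at the lower right r of 0.557 to 0.788.

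Markers of other cells moved with these genes. The 4 tumors with the most Xcr1, which were Smc3/Bcl6 tumor 3, Bcl6 tumors 3 and 2 and Smc3/Bcl6 tumor 2, held summed CPM of 8 T cell markers of 2500, 2110, 3040 and 3010. In the other 5 tumors, with Xcr1 at or below 4.82 CPM, the sum was 122 to 1180. The sum of 7 NK cell markers split the same tumors, at 1300, 1180, 1310 and 2100 CPM in the former and 31.1 to 317 in the latter. Most of the sum in the former was Nkg7, at 922, 882.5, 982 and 1853 CPM, and Prf1 and Eomes split the tumors too. Gzma did not split them. Ncr1, Klrb1c and Klra8 were highest in Smc3/Bcl6 tumor 4, which was among the latter, at 32.6, 41.7 and 10.5 CPM. The sum of 10 macrophage and monocyte markers was 391 to 2960 in Bcl6 and 254 to 3380 in Smc3/Bcl6 tumors, and its lowest values were those of Smc3/Bcl6 tumor 1 and Bcl6 tumor 1, the tumors with the least Itgax. None of the T cell, NK cell or macrophage markers was at 0 in any tumor, and their part in the levels of the members was not tested.

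Smc3/Bcl6 tumors 4 and 6, with the most Flt3 and Siglech, held summed erythroid markers of 12900 and 4280 CPM, against 44.7 to 4660 in the other tumors, and Smc3/Bcl6 tumor 2, at 4660, had 4.76 CPM of Siglech. The B cell sum was 1850 to 6870 in Bcl6 and 3880 to 9820 in Smc3/Bcl6 tumors, highest in Smc3/Bcl6 tumor 4. Of the marker lists, 1 of 7 neutrophil genes (Mpo) was lower past the thresholds in Smc3/Bcl6 tumors, against 0.868% of all tested genes. The Mpo call rested on Bcl6 tumor 3, at 209.1 CPM, while Bcl6 tumors 1 and 2 stood at 1.499 and 0.864. Smc3/Bcl6 tumors ran from 0.3949 to 17.59 CPM of Mpo, so the groups overlapped (exact two-sided permutation p = 0.536). For the B cell (7), plasma cell (5), T cell (8), NK cell (7), macrophage (10) and stroma (7) markers the count past the thresholds was 0. With the replicate block, 2 T cell, 1 NK cell and 4 macrophage genes were lower past the thresholds and 0 neutrophil genes passed, against 1.9% of the genes tested in that fit that were lower.

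**Figure D5:**
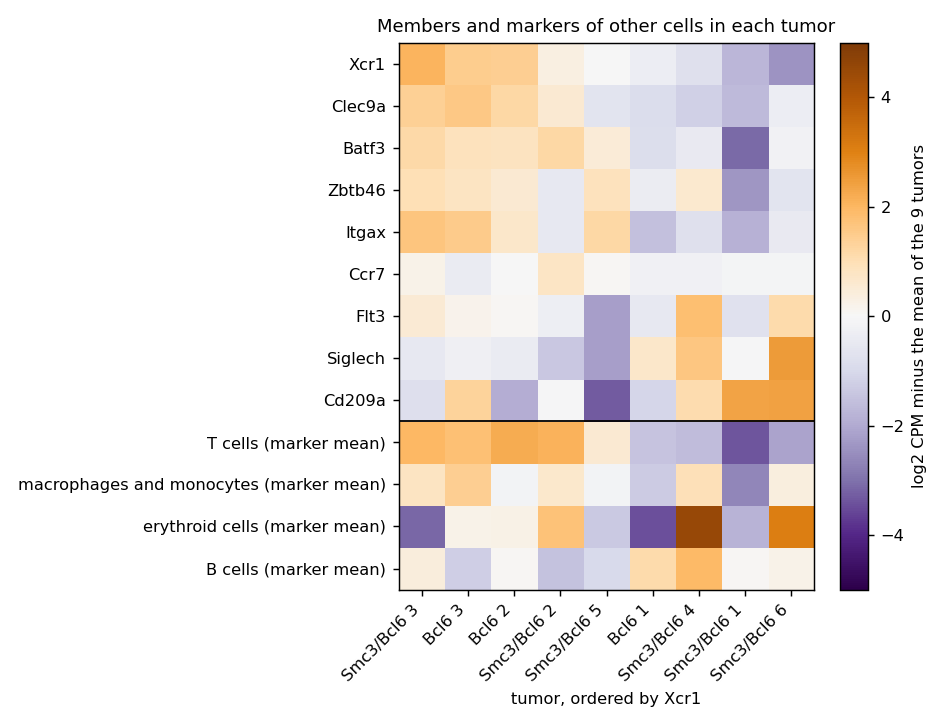
Log2 CPM of each member and mean log2 CPM of 4 marker lists in each tumor, as the difference from the mean of the 9 tumors (orange above, purple below), with tumors ordered by Xcr1. The T cell markers, of which the 4 tumors with the most Xcr1 held summed CPM of 2110 or more, fall off to the right with Xcr1, while Ccr7 stays near 0.

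In lists of other dendritic cell genes, few passed the test between genotypes. Of 94 genes, 93 were in the table and 87 were tested, and 3 were higher and 1 lower past the thresholds, against 1.28% higher and 0.868% lower of all tested genes. The log2 fold change was positive in 51 and negative in 36, with a median of 0.08 beside 0.06 over all tested genes. Of the 15 cDC1 genes, 0 passed (6 positive, 9 negative, median -0.23), and of the 20 plasmacytoid genes, 0 passed (12 positive, 8 negative, median 0.21). Of 14 cDC2 genes tested 2 were higher, of 19 migratory genes tested 1 was lower, and of 13 lineage genes 1 was higher. Of 6 ligand genes tested, 0 passed (2 positive, 4 negative, median -0.23). The lists also hold genes made by B cells, such as H2-DMb2. Some list genes stood above every member, with Cd74 at 13720 to 23980 CPM and Cd83 at 265 to 759. The counts and medians of the lists therefore do not read dendritic cells alone.

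The 4 genes past the thresholds were Cd209d, Epcam, Samsn1 and H2-DMb2. Cd209d, a lectin of the same cluster as Cd209a, had 92 counts in all and stood at 0.784, 2.06 and 2.80 CPM in Smc3/Bcl6 tumors 3, 4 and 6 and at or below 0.106 elsewhere (unadjusted p = 0.0389). Epcam, an adhesion molecule of Langerhans cells and of epithelium, stood at 9.55 to 13.8 CPM in Bcl6 and 10.6 to 31.5 in Smc3/Bcl6 tumors (log2 fold change 0.77 ± 0.37 SE, unadjusted p = 0.0635). H2-DMb2, part of the machinery that loads peptide on MHC class II and also made by B cells, had a log2 fold change of 0.66 ± 0.34 SE (unadjusted p = 0.0799). Samsn1, an adaptor that restrains B cell activation, was lower, with a log2 fold change of -0.65 ± 0.35 SE (unadjusted p = 0.0968). In each of the 4 the groups overlapped, and the adjusted p was 1 (edgeR).

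The count of 4 depended on single tumors. It was 9 without Bcl6 tumor 1 (where 2.5% of all tested genes passed) and 13 without Smc3/Bcl6 tumor 3 (4.51%). It was 1 without Bcl6 tumor 2 (1.69%), 0 without Bcl6 tumor 3 (2.41%), 2 without Smc3/Bcl6 tumor 1 (2.5%) and 1 without Smc3/Bcl6 tumor 6 (1.15%). Over tumors 1 to 3 of each genotype without the block, 2 genes were higher and 0 lower. With the replicate block 0 genes were higher and 2 were lower, the cDC1 integrin Itgae and the monocyte and cDC2 growth factor receptor Csf1r, against 2.24% of the genes tested in that fit.

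The factors that direct these lineages did not pass the test, and most are made by B cells as well. Irf8, needed by cDC1, had a log2 fold change of 0.07 ± 0.43 SE, and Irf4, needed by cDC2 and by plasma cells, of 0.57 ± 0.39 SE (unadjusted p = 0.181). Id2, which restrains E proteins in conventional cells, had -0.18 ± 0.81 SE, and Tcf4, the E protein of plasmacytoid cells, 0.48 ± 0.43 SE. Irf8 stood at 718.8 to 2398 CPM over the 9 tumors. Among the ligands, Flt3l, which acts on Flt3, stood at 15.1 to 25.2 CPM in Bcl6 and 11.2 to 31.3 in Smc3/Bcl6 tumors (log2 fold change -0.22 ± 0.36 SE). Xcl1, which acts on Xcr1, stood at 1.76 to 23.0 CPM in Bcl6 and 0.278 to 23.0 in Smc3/Bcl6 tumors (log2 fold change -0.41 ± 1.05 SE). The Ccr7 ligands Ccl19 and Ccl21a had 44 and 50 counts in all and were below the filter.

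The genes whose log2 CPM was most like that of a member over the 9 tumors are given with Pearson r and no test. Xcr1 was most like Nr4a2 (0.972), Themis (0.969) and Fgf13 (0.968), of which Themis is a T cell gene. Clec9a was most like RP23-32C18.4 (0.967) and the interferon-stimulated genes Irf7 (0.964) and Oas1a (0.963). Itgax was most like Mmp19 (0.982), Cebpa (0.978) and Tnfrsf1b (0.976), of which Cebpa is a factor of myeloid cells. Flt3 was most like Ccdc148 (0.975), Kitl (0.965) and Uckl1os (0.96). Siglech was most like Prox1 (0.978), Myl9 (0.973) and Tom1l1 (0.938). Batf3 was most like S100a6 (0.971), Ptger2 (0.959) and Lfng (0.953), and Zbtb46 most like Trps1 (0.974), Galnt3 (0.971) and 2900005J15Rik (0.966). Cd209a was most like Zfp516 (0.942), Fxyd6 (0.939) and Igkv18-36 (0.925), and Ccr7 most like B3gat3 (0.952), Fbxo4 (0.948) and Bloc1s1 (0.947).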

How the data were processed

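RNA of 9 lymphomas was sequenced, 1 library per tumor. The authors aligned the reads to mm10 with STAR, counted them per gene with featureCounts in the nf-core pipeline and deposited them as raw counts, with every column mapped to a sample. Positions and exon lengths came from GENCODE M21 (97.9% of gene IDs found), and start regions from RefSeq (GRCm38.p6). Genes with older symbols were matched by ID.

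The quasi-likelihood test of edgeR 4.0.16 (R 4.3.3) was fitted to genes that passed its filter on low counts, with TMM factors, and p-values were adjusted over 14057 genes (Benjamini-Hochberg) and read at the thresholds of the study. A standard error is the log2 fold change over the root of F. Log2 CPM used a prior count of 2. Permutation tests were exact and two-sided, over 84 splits for genotypes (smallest p 0.0238). DESeq2 1.42.0 and limma 3.58.1 were alternatives. The main fit was also run on simulated data. There a log2 fold change of 1 passed the thresholds in 57% of the changed genes, and 9.22% of the unchanged genes passed. That share was above the 2.15% of all tested genes in the tumors, so the simulation did not match the data and does not check the fits. Named genes are the members, list genes past the thresholds, lineage factors, ligands and the most similar genes.

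Replicate numbers come from the labels, which do not name the mouse behind each library, so p-values measure the spread between libraries. Deviations of tumors with the same number correlated at 0.443, 0.113 and 0.155 for replicates 1, 2 and 3. Replicate 1 is also the number of the tumors labelled mesenteric, so a shared number and a shared label cannot be told apart there. The numbers were treated as pairs in a block over replicates 1 to 3 as an alternative fit, without a pairing being known. Members and lists were chosen with earlier results of these data known. The test of the erythroid markers gene by gene is not reported here.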

Additional observations from a re-analysis of the deposited data

How the results depend on the processing

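Of 162 values of the 9 members under an alternative, 145 kept direction and side of the thresholds, 6 passed them and 11 turned direction. Of members past the thresholds there were 0, but 2 by limma with quality weights and 0 to 2 when a tumor was left out. Other dendritic cell genes past the thresholds numbered 4 of 87 tested, against 2.15% of all tested genes. By DESeq2 they numbered 8, all higher, against 3.15%, and by limma 20 (9 higher and 11 lower) against 11.7%. With the replicate block they numbered 2, both lower, against 2.24%. Over tumors 1 to 3 of each genotype without the block they numbered 2 (chosen after seeing the data). Their count was 1 at an unadjusted p of 0.05, 0 at an adjusted p of 0.05 and 0 to 13 with a tumor left out. Over all genes the 302 became 1388 with no filter, 683 with a minimum of 10 counts in total, 1644 by limma, 77 at an unadjusted p of 0.05 and 0 at an adjusted p of 0.05, and 159 to 624 with a tumor left out (533 without Smc3/Bcl6 tumor 2, 624 without tumor 3 and 159 without tumor 6). The 180 higher and 122 lower genes became 342 and 101 by DESeq2, 642 and 1002 by limma, 130 and 192 with the tissue label as covariate and 45 and 254 with the replicate block. Over tumors 1 to 3 of each genotype the log2 fold change turned to -0.0553 for Flt3, -0.637 for Siglech and 0.0599 for Batf3 without the replicate block, and to -0.12 for Flt3 and -0.68 for Siglech with it. The block changed no call of a member. With a tumor left out the log2 fold change ran from -0.589 to 0.0947 for Batf3, from 0.0954 to 0.824 for Flt3, from 0.0226 to 1.14 for Siglech, from -0.535 to 0.0225 for Zbtb46 and from -0.86 to 0.412 for Itgax. The causes were not tested. The lowest counts of Clec9a, Batf3 and Cd209a were 11, 5 and 5.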
